A study of Mus musculus with 4 samples.

Results

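The interleukin-1 (IL-1) family was followed across the cells of 4T1 tumours through 9 genes, the ligands Il1a, Il1b, Il18 and Il33, the antagonist Il1rn, and the receptor genes Il1r1, Il1r2, Il1rap and Il1rl1. They are 9 of the 55450 genes in the deposited count matrix and were taken by gene symbol. 4T1 is a mouse mammary carcinoma line, here grown for 13 days in the right flank of female BALB/c mice aged 6 to 8 weeks, after 1000000 cells per mouse. On day 7 the mice received an intravenous injection of PBS or of TIOs (T cell-inspired oncolytic system). TIOs are cells of a mouse macrophage line, loaded with light-activated particles that carry RSL3, an inhibitor of the enzyme GPX4, and then frozen in liquid nitrogen. Near infrared (NIR) light of 980 nm was then given to all groups, once a day from day 8 to day 10. It lasted 5 min each time, by the labels at 1.0 W per cm2. By the labels 2 samples were PBS with NIR light and 1 was TIOs with NIR light (TIOs+NIR3), and the remaining sample was placed in no group because its title and its protocol disagree. By the labels both groups carried a grafted tumour and received NIR light, and no sample from a mouse without a tumour was analysed here. The sample in no group is part of the pooled values. Its protocol also gives NIR light, but as title and protocol disagree, its treatment, light included, is not settled.

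The cells carry 4 barcode suffixes, 1 for each library, and no source used here ties a suffix to a sample. The values below therefore describe tumours of both treatments and of the sample in no group together. Each library is shown apart as a sample of unknown treatment, and no treatment was compared and no test was run.

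IL-1 signalling begins when IL-1α or IL-1β binds the receptor IL1R1, which then recruits the accessory protein IL1RAP. The receptor antagonist encoded by Il1rn occupies IL1R1 without starting a signal, and the decoy receptor IL1R2 captures the ligand but lacks the signalling domain. IL-1β and IL-18 are made as precursors that caspase-1 cuts after an inflammasome has assembled, so the level of their transcripts does not give the level of active cytokine. IL-33 is a nuclear protein of stromal and barrier cells that acts after release, through ST2 (encoded by Il1rl1) together with IL1RAP, on mast cells, basophils, innate lymphoid cells and regulatory T cells.

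Sequence upstream of the start site is shown for Il1a and Il1b, because these neighbours on chromosome 2 shared the neutrophil as the class of highest level, and for Il1rl1, because its transcripts lay in cell types as unlike as mast cells and fibroblasts and RefSeq gives it a pair of start sites. Each run holds the 250 bases before a start, on the gene's own strand, from RefSeq (GRCm38.p6, the C57BL/6J reference and not the BALB/c genome of these mice). In the runs of Il1a (chr2:129309973-129310222, minus strand) and Il1b (chr2:129371140-129371389, minus strand) the capitals mark every match to 5 motifs searched on both strands: the C/EBP core TTNNGNAA, the TATA box (TATAAA or TATATA), AP-1 (TGACTCA or TGAGTCA), the GATA motif (AGATAA, with A or T first and A or G last) and the kappaB consensus.
Il1a: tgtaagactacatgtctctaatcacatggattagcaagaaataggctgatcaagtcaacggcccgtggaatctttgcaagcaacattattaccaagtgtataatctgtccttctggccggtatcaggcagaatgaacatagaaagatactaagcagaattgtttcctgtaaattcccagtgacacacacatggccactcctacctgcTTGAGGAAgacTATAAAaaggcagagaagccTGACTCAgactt
Il1b: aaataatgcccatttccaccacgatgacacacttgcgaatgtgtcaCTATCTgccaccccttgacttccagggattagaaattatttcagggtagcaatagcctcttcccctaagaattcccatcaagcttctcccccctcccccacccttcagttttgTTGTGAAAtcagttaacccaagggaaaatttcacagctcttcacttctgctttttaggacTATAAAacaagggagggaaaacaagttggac
Both runs held 1 C/EBP core and 1 TATA box. Il1a also held 1 AP-1 match and Il1b 1 GATA match, and neither held the loose kappaB form in this window. Of 32851 RefSeq starts, 36.8% held the C/EBP core in the same 250 bases, 15.6% a TATA box and 4.46% AP-1. A GATA motif lay in 26.5% and the loose kappaB form in 45.8%.

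In the runs of Il1rl1 (chr1:40429320-40429569 for the upstream start and chr1:40439379-40439628 for the downstream start, plus strand) the capitals mark the GATA motif alone.
Il1rl1, upstream start: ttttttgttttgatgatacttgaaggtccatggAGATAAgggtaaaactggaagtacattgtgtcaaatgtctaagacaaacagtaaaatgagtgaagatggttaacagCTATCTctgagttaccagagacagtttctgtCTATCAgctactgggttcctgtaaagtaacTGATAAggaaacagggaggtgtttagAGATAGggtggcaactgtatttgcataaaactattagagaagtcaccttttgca
Il1rl1, downstream start: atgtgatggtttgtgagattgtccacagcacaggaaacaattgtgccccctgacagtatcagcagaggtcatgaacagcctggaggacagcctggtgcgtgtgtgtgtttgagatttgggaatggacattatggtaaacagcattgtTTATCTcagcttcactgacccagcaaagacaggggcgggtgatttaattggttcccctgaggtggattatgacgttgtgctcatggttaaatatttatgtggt
The upstream window held 5 matches and the downstream window 1. Counts of transcript 3' ends, as here, do not tell which start a molecule used, and a match of letters is not a bound site.

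After removal of barcodes with under 300 genes or over 15% mitochondrial counts, 32133 cells remained of 33064 (6783 to 8889 per library), with a median of 2641.5 to 11698 UMIs (unique molecular identifiers, 1 per captured molecule) per cell in the 4 libraries. Pairs of libraries shared 11 to 23 barcodes. Cells were assigned by gates, each a minimum number of markers of 1 cell type, so that "neutrophil" below stands for a neutrophil-gated cell. A class took 26528 cells (82.6%), 1169 cells passed several gates and were left out of the classes, and 4436 passed none. Among the 26528, 1586 cells passed both the monocyte and macrophage gates and 22 both the basophil and mast cell gates. These were kept as classes of their own. The sort was for CD45, the leucocyte protein encoded by Ptprc, yet 23.9% of the cells fell in tumour, keratinocyte, fibroblast, pericyte or endothelial gates, and at 1000 UMIs per cell 1.70% of these held a Ptprc UMI against 39.7% of the immune classes. Library 1 stood apart, with 53.1% of its cells in those gates and 3920 of the 4137 tumour-gated cells. In libraries 2 to 4 this share was 20.6%, 11.6% and 10.6%.

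Levels are given as CPM, which scales the UMI count of a gene in a class to 1000000 UMIs of that class. The share of a gene's UMIs held by a class depends on how many of its cells were captured and on their depth, so it is given separately. Median depth was 27350 UMIs in fibroblasts, 18584 in tumour-gated cells and 1806 in neutrophils. Of the 354742109 UMIs of the kept cells, fibroblasts held 89137307, tumour-gated cells 84987971 and neutrophils 17216389. The 9 genes fell into 3 patterns. Il1a, Il1b, Il1rn, Il1r2 and Il1rap had their highest level in neutrophils, Il18 in cells of the monocyte lineage, and Il1r1, Il33 and Il1rl1 held most of their UMIs in fibroblasts among the gated cells.

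**Figure D1:**
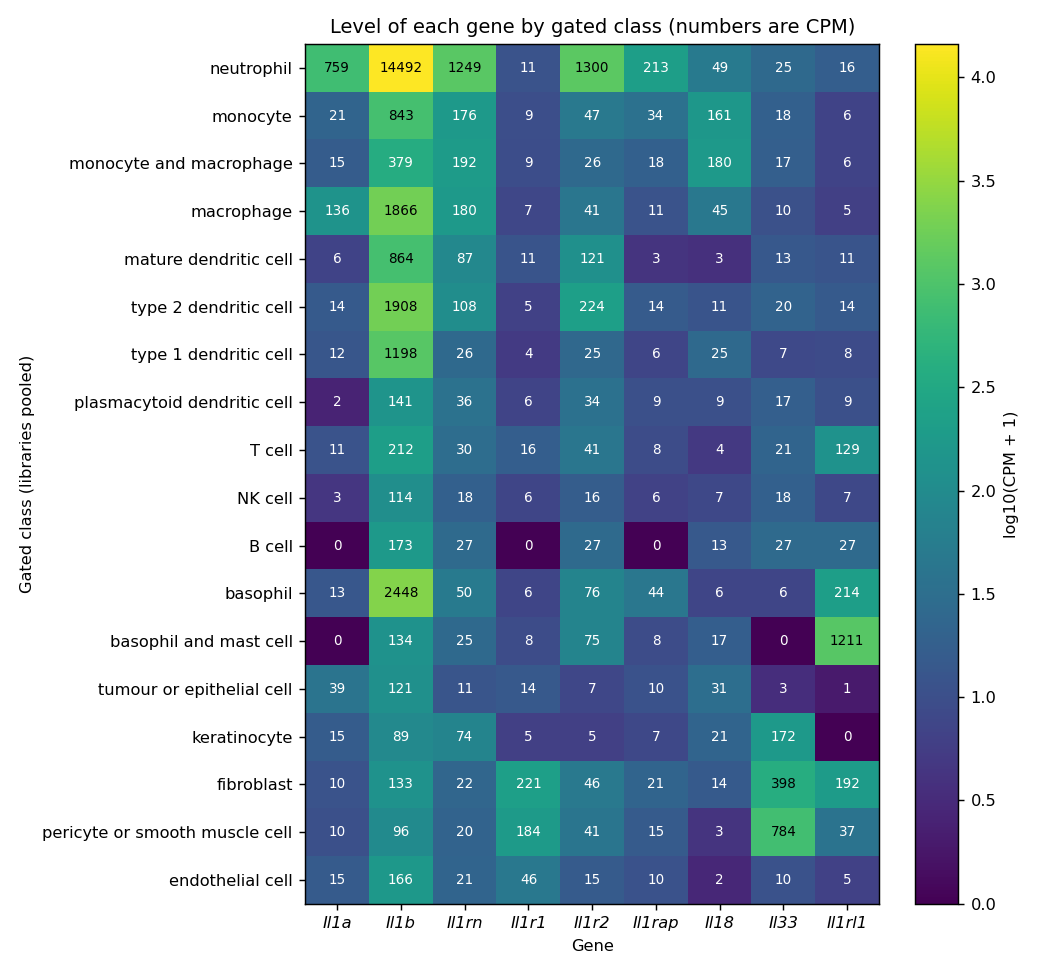
Level of the 9 genes (columns) in each gated class of at least 20 cells (rows), with the 4 libraries pooled. Colour is log10(CPM + 1) and the printed number is the CPM. Neutrophils hold the highest value of 5 genes, led by Il1b at 14492 CPM, and Il33 and Il1r1 are highest in fibroblasts and pericytes.

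Il1b was the most abundant of the 9, with 413856 UMIs in 76.9% of all cells. Neutrophils, the short-lived phagocytes that dominate many 4T1 tumours, held 60.3% of these UMIs (95% interval 60.1 to 60.4, exact binomial, counting error only). Their level was 10695 CPM in library 1, 16043 in library 2, 15062 in library 3 and 12012 in library 4. It was above that of every other class of at least 20 cells in each library, and pooled it was 5.92-fold that of the next class, the basophils. A neutrophil held a median of 22 Il1b UMIs (13, 25, 23 and 19 by library), and 97.6% of neutrophils held at least 1.

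Macrophages differed far more between libraries than neutrophils did. Their Il1b level was 3592 CPM in library 1, 604 in library 2, 614 in library 3 and 197 in library 4. Library 1 lay above the other 3, and its macrophages, with a median of 30 Il1b UMIs per cell, held 54.7% of all Il1b UMIs of that library, more than its 659 neutrophils with 14.2%. Monocytes followed the same order, with 5048 CPM in library 1 (59 cells), 1774 in library 2, 1994 in library 3 and 588 in library 4. Library 1 is also the library with the most tumour-gated cells and the lowest share of neutrophils, and the part of either in this difference was not tested.

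Within macrophages the pooled Il1b level differed with the markers held, in a split chosen after the values were seen. Macrophages with Cd163, a scavenger receptor of resident-like cells, had 388 CPM of Il1b (interval 367 to 410, 565 cells). Those with Arg1, the arginase of wound-type macrophages, but no Cd163 had 1076 CPM. Those with neither had 2514 CPM, but 1007 of these 1814 cells came from library 1. Inside library 2 the levels of the 3 kinds were 526, 611 and 647 CPM, inside library 3 they were 362, 734 and 605 CPM, and inside library 4 they were 132, 175 and 237 CPM. The Cd163-positive cells were thus lowest in each of these 3 libraries, and library 1 had under 20 such cells. The order of the other kinds was turned in library 3. In library 4 the 132 CPM of the Cd163-positive cells lay close to the T cell level taken below as background. The part of background in these differences was not tested.

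Dendritic cells, which present antigen to T cells, also held Il1b. The type 2 class had 1908 CPM (interval 1842 to 1976, 156 cells), the type 1 class 1198 CPM (140 cells) and the mature class 864 CPM (210 cells, 183 of them from library 3). Basophils, rare granulocytes with receptors for IgE, had 2448 CPM (interval 2210 to 2704) over only 45 cells. Per UMI of S100a9, an abundant neutrophil transcript, they held 2 Il1b UMIs (interval 1.68 to 2.39), against 0.261 in neutrophils.

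T cells, which should hold little of a myeloid cytokine, were taken as the background. They had an Il1b level of 168, 174, 314 and 128 CPM in libraries 1 to 4, and at 1000 UMIs per cell 12.1% of them held a UMI, against 96.8% of neutrophils and 43.6% of macrophages. Pooled, fibroblasts (133 CPM), endothelial cells (166 CPM), tumour-gated cells (121 CPM) and NK cells (114 CPM) lay under the T cell level of 212 CPM, but this pooled T cell level drew 446 of its 1039 cells from library 3, which had the highest value. Per cell, where depth also counts, fibroblasts held a mean of 3.90 Il1b UMIs, endothelial cells 3.51 and tumour-gated cells 2.49. These lay above the 1.09 of T cells, and NK cells with 0.704 lay under it. Inside library 2 fibroblasts had 197 CPM (interval 193 to 202) against 174 CPM in T cells (interval 147 to 204), while in the other 3 libraries they had 148, 124 and 75.2 CPM, each under the T cells of that library. Per S100a9 UMI, fibroblasts of library 1 held 1.22 Il1b UMIs (interval 1.02 to 1.46) and endothelial cells of library 3 held 0.804 (interval 0.681 to 0.947), both above the T cells of the same library at 0.570 and 0.503. The Il1b of these classes was therefore low in CPM, and not in every library or by every measure at or under the background. The Il1b of macrophages in library 4 (197 CPM, 10.4% of thinned cells) lay close to this background, which was 128 CPM and 5.49% in the T cells of that library. Per S100a9 UMI, macrophages held 15.9, 0.901, 0.685 and 0.384 Il1b UMIs in libraries 1 to 4, and T cells 0.570, 0.861, 0.503 and 0.378, so that only in library 1 did macrophages lie far above the T cells of their library.

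**Figure D2:**
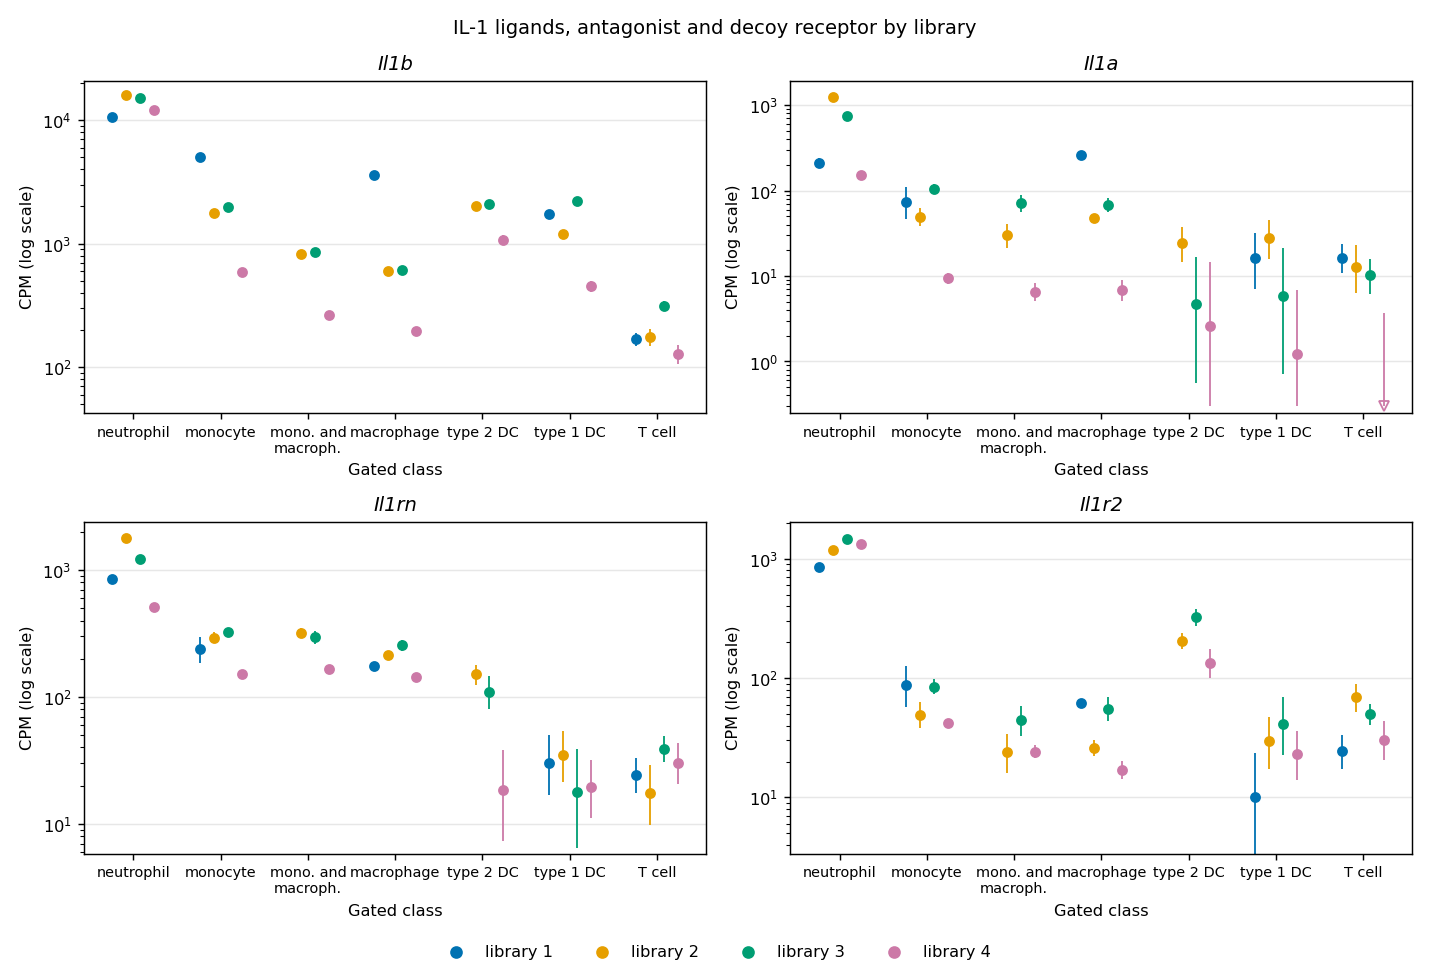
CPM (log axis) of Il1b, Il1a, Il1rn and Il1r2 in 7 gated classes, 1 point per library with its exact 95% Poisson interval, for classes of at least 20 cells in that library. An open triangle marks a library with no UMI, and intervals are cut at the lower edge. Neutrophils are highest in each panel except Il1a in library 1, where macrophages reach 262 CPM against 211 CPM, and T cells are shown for comparison.

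Il1a encodes IL-1α, which needs no inflammasome and acts as an alarm signal of dying cells. It was scarcer than Il1b and less even. Neutrophils had 211 CPM in library 1, 1236 in library 2, 741 in library 3 and 152 in library 4, so that libraries 2 and 3 lay well above the other pair. Only 35.1% of neutrophils held a UMI, and the tenth of cells with the most Il1a held 65.8% of it, against 30.9% for Il1b. In library 1 macrophages (262 CPM) exceeded neutrophils, whereas in libraries 2 to 4 they had 47.9, 68.3 and 6.81 CPM. The order of library 1 rests on that library alone. Only 110 of its 659 neutrophils held an Il1a UMI, and the tenth with the most held 82.3% of them.

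Tumour-gated cells held 12.2% of all Il1a UMIs, at a level of 32.4 CPM in library 1 and 101.1 CPM in library 2 (215 cells). There the ratio of Il1b to Il1a UMIs was 3.65 in library 1 and 1.44 in library 2, where neutrophils of the same libraries had 50.8 and 13.0. Macrophages of these libraries had ratios of 13.7 and 12.6, also higher than those of the tumour-gated cells. At 1000 UMIs per cell 3.20% of tumour-gated cells held an Il1a UMI, against 1.18% of T cells. These pooled shares are not matched by library. Library 1 gave 3920 of the 4137 tumour-gated cells but 345 of the 1039 T cells, and its T cells held 27 of the 57 Il1a UMIs of T cells.

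Il1rn, the gene of the receptor antagonist, followed Il1b into neutrophils. Its level there was 847, 1777, 1226 and 509 CPM in libraries 1 to 4, highest of all classes in each library, and neutrophils held 47.0% of its UMIs. Monocytes had 238, 293, 325 and 151 CPM and macrophages 176, 213, 256 and 143 CPM, so that Il1rn of macrophages spanned 143 to 256 CPM where their Il1b spanned 197 to 3592 CPM. T cells gave a background of 17.5 to 39.2 CPM. Keratinocytes, the barrier cells of skin, had 73.8 CPM over 46 cells, all from library 1.

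Pooled, Il1b UMIs outnumbered Il1rn UMIs in every class, but by very different amounts. In keratinocytes the ratio was 1.21, with an interval of 0.792 to 1.86 that holds 1. Where the Il1b of a class lay near the background, its ratio is not shown to be its own. Each captured molecule is counted once at its 3' end whatever its length. Whether molecules of both genes were captured equally well was not tested, so a ratio is best read against that of other classes and libraries. Neutrophils held 12.6 Il1b UMIs per Il1rn UMI in library 1 (interval 11.8 to 13.5), 9.03 in library 2, 12.3 in library 3 and 23.6 in library 4. The high ratio of library 4 came with the lowest Il1rn level of the 4 libraries. Macrophages had a ratio of 20.5 in library 1 (interval 19.6 to 21.3) and of 2.83, 2.40 and 1.38 in libraries 2 to 4, so library 1 lay apart and library 4 was lowest. Cells that passed both the monocyte and the macrophage gate had 2.57, 2.92 and 1.60 in libraries 2 to 4. Type 1 dendritic cells had ratios of 57.3, 34.4, 125 and 23.0 in libraries 1 to 4, from only 6 to 20 Il1rn UMIs in each, and their pooled Il1rn level of 25.6 CPM lay within the range of T cells. Type 2 dendritic cells had 13.5, 19.0 and 58.3 in libraries 2 to 4. In library 4 the intervals of type 1 dendritic cells (14.0 to 40.7) and type 2 dendritic cells (28.0 to 145.9) overlapped, and the former also held the neutrophil value of 23.6.

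**Figure D3:**
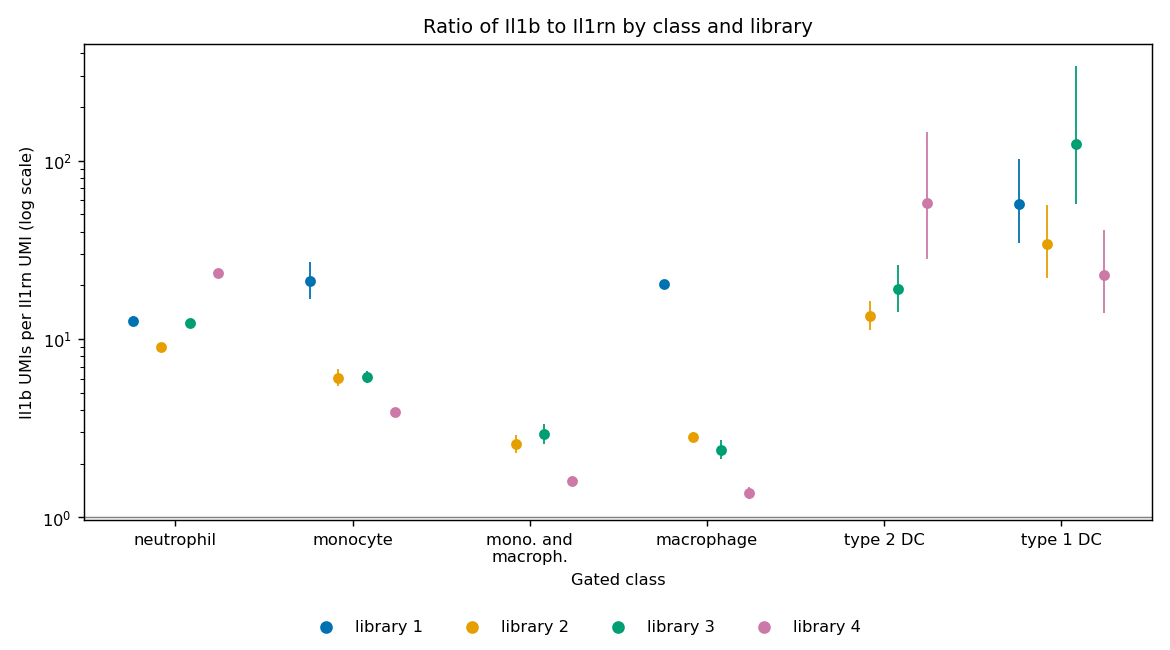
Il1b UMIs per Il1rn UMI (log axis) in 6 gated myeloid classes, 1 point per library with its exact 95% binomial interval. The grey line marks equal counts. Macrophages of library 1 lie at 20.5 and those of libraries 2 to 4 between 1.38 and 2.83, while neutrophils stay between 9.03 and 23.6.

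Neutrophils were not uniform for these genes. At 1000 UMIs per cell, 52.7% of neutrophils with an Il1b UMI held an Il1rn UMI and 28.8% held an Il1a UMI, against 33.7% and 4.55% of those without. As 96.8% held Il1b, the former shares lie near those of all neutrophils, 52.1% and 28.0%. By library they ran from 31.1% to 66.1% for Il1rn and from 10.2% to 42.4% for Il1a. Inside library 1 the Il1rn shares with and without Il1b were 40.8% and 35.1%, and inside library 4 31.1% and 26.4%, closer than when pooled. In library 2 they were 66.1% and 47.7%, and in library 3 54.7% and 32.4%. The Il1b-negative cells of library 1 were few, 13 with Il1rn and 24 without. By a split chosen after the values were seen, neutrophils without Retnlg, a transcript of blood-like neutrophils, had 846 CPM of Il1a and 1349 CPM of Il1rn, against 574 and 1000.3 CPM with Retnlg. Among the former, those with Cd274, the gene of the checkpoint ligand PD-L1, had 1285 CPM of Il1a and 1824 CPM of Il1rn. This order held within each library for both genes, for example 422, 311 and 125 CPM of Il1a in library 1 and 1855, 1293 and 1044 CPM in library 2. Il1b differed less, with 15186, 14952 and 13723 CPM in the same order, and in library 2 the order was turned, at 15132, 16116 and 16218 CPM.

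The receptor genes divided between cell types. Il1r1, the signalling receptor, was a stromal transcript. Fibroblasts, the matrix-producing cells, had 99.7, 205, 223 and 243 CPM in libraries 1 to 4 and held 70.5% of its UMIs, and they led every library. Pericytes and smooth muscle cells had 203 CPM in library 2 and 174 CPM in library 3, which places them beside fibroblasts of the same libraries (the interval of the pooled pericyte level was 168 to 201). Endothelial cells, which line vessels, had 16.8, 49.96 and 31.5 CPM in libraries 1 to 3. Neutrophils had 0.850, 10.1, 10.3 and 15.0 CPM, the level taken as background. T cells had 16.3 CPM pooled.

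Il1r2, the decoy, was a neutrophil transcript, at 852, 1179, 1473 and 1336 CPM in libraries 1 to 4. Neutrophils held 63.8% of its UMIs. Type 2 dendritic cells came next, with 206, 323 and 134 CPM in libraries 2 to 4, and mature dendritic cells of library 3 had 132 CPM, against a T cell level of 49.9 CPM in that library. Pooled, neutrophils held 124 Il1r2 UMIs for each Il1r1 UMI and fibroblasts 0.209, and the fibroblast ratio stayed between 0.141 and 0.234 in all 4 libraries. The Il1r2 level of fibroblasts was 14.0, 44.8, 52.3 and 45.9 CPM in libraries 1 to 4, against 24.3, 68.9, 49.9 and 30.4 CPM in T cells. T cells were not uniform for this gene, with 79.3 CPM in Foxp3-positive cells (interval 62.7 to 98.9), 45.6 CPM in Cd4-positive cells without Foxp3 and 21.9 CPM in CD8 cells (interval 14.6 to 31.7), of which 216 of 237 came from library 1. The T cell level of Il1r2 is therefore a comparison and not a measured background.

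Il1rap, the shared accessory chain of the IL-1 and IL-33 receptors, was the scarcest of the 9, with 9427 UMIs and at most 10 in a cell. It was highest in neutrophils in each library, at 56.9, 291, 165 and 218 CPM. Monocytes had 19.3, 48.6, 30.9 and 33.7 CPM and fibroblasts 37.2, 23.8, 23.9 and 16.1 CPM, above the T cell level of 5.84 to 11.3 CPM. Fibroblasts held 20.05% of its UMIs, with a median depth of 27350 UMIs per cell.

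Il18, the inflammasome-dependent inducer of interferon-γ, was highest in cells of the monocyte lineage but was not confined to them. Monocytes had 70.7, 71.8, 136 and 171 CPM in libraries 1 to 4, and cells passing both the monocyte and macrophage gates had 105, 178 and 191 CPM in libraries 2 to 4. Macrophages had 18.1, 63.6, 55.4 and 74.2 CPM. In each of these classes library 4 was highest and library 1, where it had 20 cells, lowest, while Il1b of monocytes and of macrophages was highest in library 1 and lowest in library 4. Pooled, Cd163-positive macrophages had 97.2 CPM of Il18 (interval 86.7 to 109) against 37.7 CPM in those with Arg1 and no Cd163, where their Il1b levels were 388 and 1076 CPM. Inside libraries 2 and 4 this order held, at 102 against 29.6 CPM and at 104 against 57.2 CPM, and in library 3 the values were 55.1 and 41.3 CPM. Macrophages with neither marker had 73.6, 86.4 and 79.7 CPM in libraries 2 to 4. T cells had 3.92 CPM. Tumour-gated cells had 32.7 CPM in library 1, and held 19.6% of all Il18 UMIs.

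**Figure D4:**
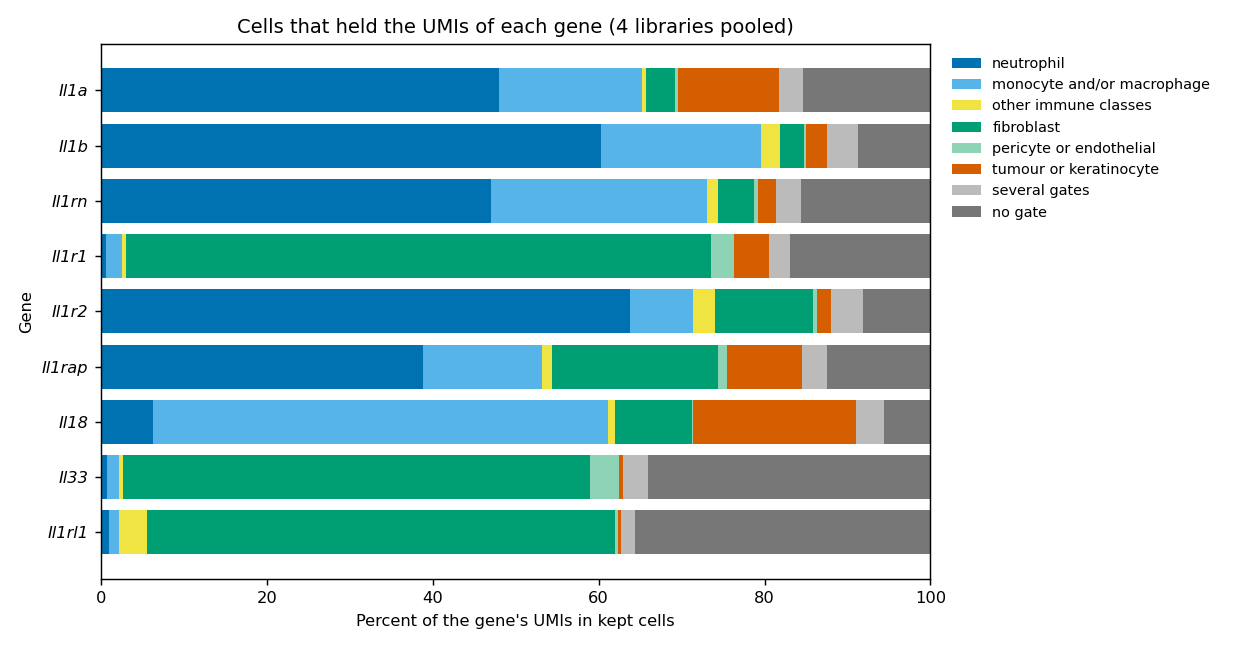
Percent of the UMIs of each gene, over the cells kept in the 4 libraries, that lay in each group of gated classes, in cells of several gates and in cells of no gate. Neutrophils hold 60.3% of Il1b and 63.8% of Il1r2, fibroblasts hold 70.5% of Il1r1, and cells of no gate hold 34.1% of Il33 and 35.6% of Il1rl1.

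Il33 and its receptor gene Il1rl1 lay in part in the same cell type. Il33 had 86.7 CPM in the fibroblasts of library 1 (131 cells) and 424, 406 and 384 CPM in libraries 2 to 4. Its spread among cells was wide. The tenth of fibroblasts with the most Il33 held 48.3% of it, with up to 248 UMIs in a cell, and 81.8% of fibroblasts held a UMI. Fibroblasts with Lrrc15, a marker of tumour-associated fibroblasts, had 207 CPM (interval 193 to 222, 166 cells), those with Dpt and no Lrrc15, a more universal kind, 351 CPM, and those with neither 422 CPM. In library 2 the order was the same, at 249.5, 395 and 457 CPM. The order inside the other libraries is not given here, so this is not a repeat over all of them.

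The highest pooled Il33 level, 784 CPM, was that of pericytes and smooth muscle cells, but it rested on library 3. The 53 cells there had 1826 CPM (interval 1749 to 1907) and the 73 cells of library 2 had 39.4 CPM (interval 29.2 to 51.9). Without library 3 the pooled value was 42.5 CPM. In library 3 only 19 of the 53 cells held Il33, with up to 474 UMIs in a cell. These cells held 1.12 Il33 UMIs per UMI of the fibroblast collagen Col3a1, against 0.0338 in fibroblasts of the same library. Keratinocytes had 172 CPM of Il33 (interval 139.7 to 209), where neutrophils of the same library had 1.70 CPM. Endothelial cells had 8.97 and 19.5 CPM in libraries 2 and 3, under the 16.4 and 35.5 CPM of neutrophils taken as background.

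Il1rl1, the gene of the IL-33 receptor ST2, had its highest level in the rare granulocytes. The 22 cells that passed both the basophil and the mast cell gate, led by mast cell proteases such as Cma1 and Mcpt4, had 1211 CPM (interval 1022 to 1425), and 21 of them held a UMI. Basophils had 214 CPM (interval 149 to 300) and the 13 cells of the group 2 innate lymphoid gate 521 CPM (interval 398 to 669). None of these reached 20 cells in a library, so no spread over libraries can be given. Il1rl1 is not among the markers of these gates.

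By number of molecules, however, Il1rl1 was a fibroblast transcript. Fibroblasts held 56.4% of its UMIs, at 77.6, 189.7, 386 and 85.9 CPM in libraries 1 to 4, with library 3 highest. T cells came to 16.4, 138, 242 and 97.3 CPM, and library 3 was again highest. Among T cells, those with Foxp3, the regulatory T cell factor, had 132 CPM in library 1, 151 in library 2 and 392 in library 3. Cd4-positive cells without Foxp3 had 104, 139.6 and 250.01 CPM in the same libraries and 102 CPM in library 4. CD8 cells held no Il1rl1 UMI in 237 cells, which allows up to 2.35 CPM from 3 counts. Most of these CD8 cells came from library 1, where T cells had the least Il1rl1. Their lack of Il1rl1 can thus be set only beside the 132 and 104 CPM of library 1, and says little of the other libraries. Neutrophils had a background of 0, 15.9, 23.1 and 9.78 CPM.

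**Figure D5:**
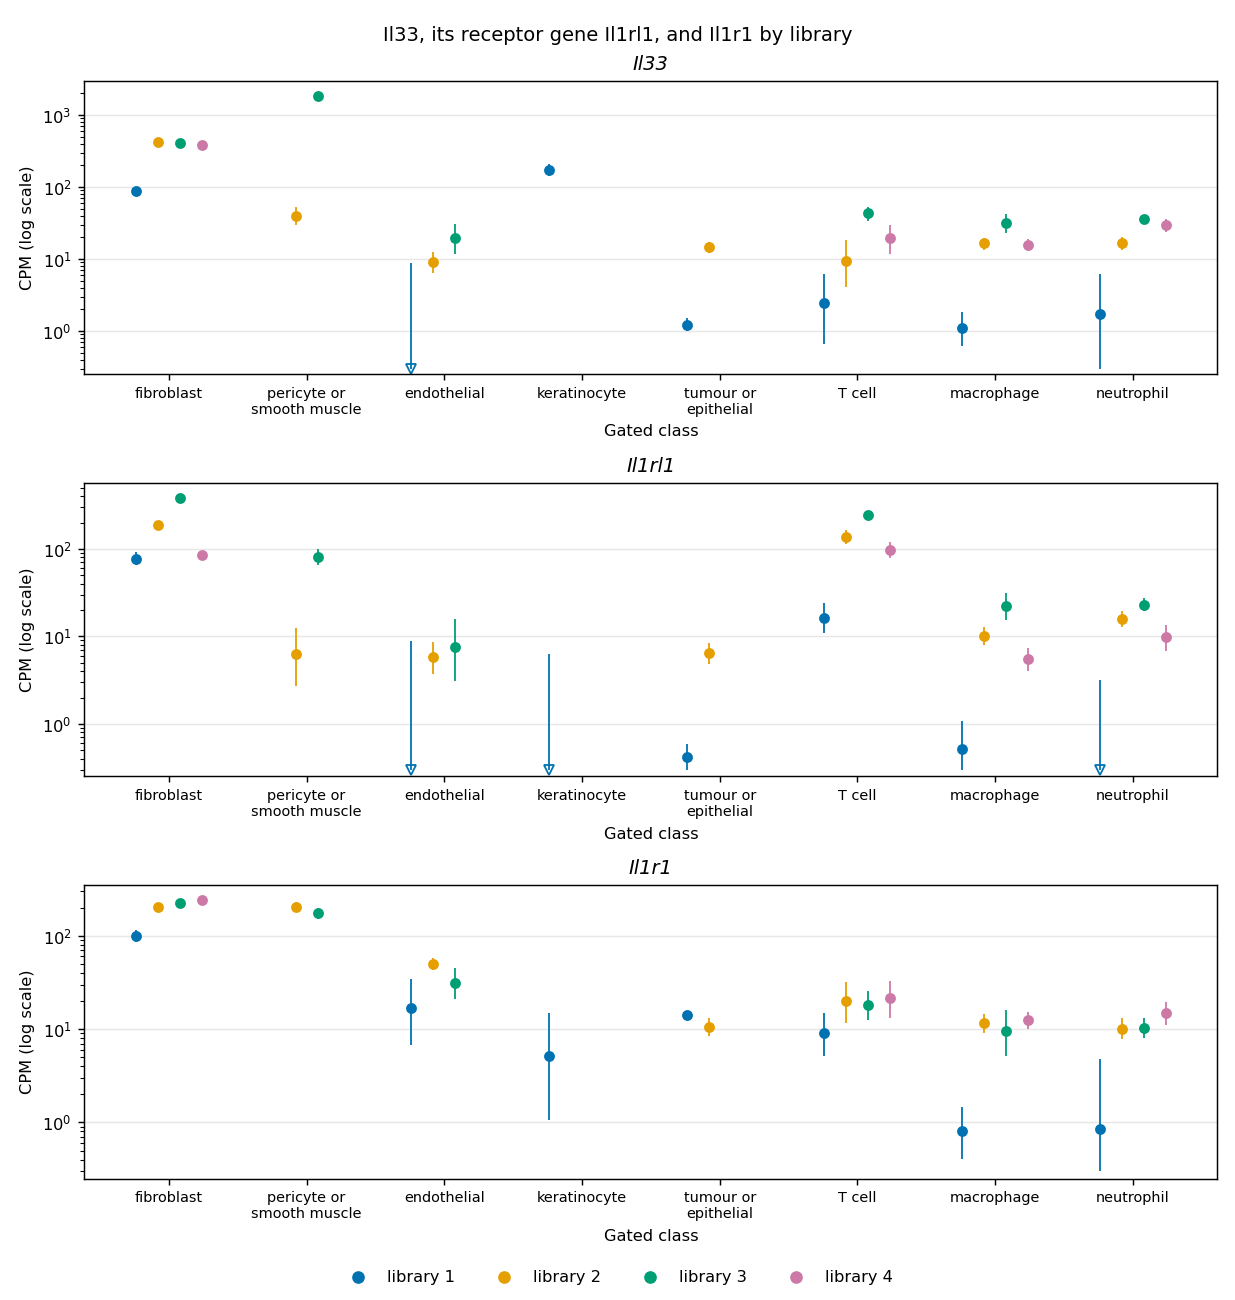
CPM (log axis) of Il33, Il1rl1 and Il1r1 in 8 gated classes, 1 point per library with its exact 95% Poisson interval, for classes of at least 20 cells in that library. Open triangles mark a library with no UMI, and intervals are cut at the lower edge. Pericytes carry 1826 CPM of Il33 in library 3 and 39.4 CPM in library 2, and Il1rl1 of fibroblasts and of T cells is highest in library 3.

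At 1000 UMIs per cell, 14.2% of fibroblasts with Il33 held Il1rl1 and 11.1% of those without. At this depth many molecules of both genes are missed, and the pair of shares is a description only. The ratio of Il33 to Il1rl1 UMIs in fibroblasts was 1.12, 2.23, 1.05 and 4.47 in libraries 1 to 4.

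Cells of no gate held 34.1% of the Il33 and 35.6% of the Il1rl1 UMIs, which the values above leave out. When all cells were clustered instead, 800 of these 4436 cells lay in clusters named as fibroblast and held 51.4% of their Il33 and 85.8% of their Il1rl1, and 88 cells lay in a cluster named as pericyte or smooth muscle cell and held 45.3% of their Il33. Another 1225 lay in neutrophil clusters and held 66.1% of the Il1a and 60.8% of the Il1rn of the ungated cells.

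Of the 9 genes, 5 held over 50% of their UMIs in 1 gated class (Il1b, Il1r1, Il1r2, Il33 and Il1rl1). Over all 13464 genes with at least 500 UMIs the share was 14.9%. The same 1 class had the highest level in all 4 libraries for 5 of the 9 (Il1b, Il1rn, Il1r1, Il1r2 and Il1rap), where the share over all genes was 11.8%. The members were chosen as known genes of immune and stromal cells, and these counts say nothing particular to the family. The exceptions to the second count were Il1a, led by macrophages in library 1, Il18, led by monocytes there, Il33, led by keratinocytes, fibroblasts, pericytes and fibroblasts in turn, and Il1rl1, led by T cells in library 4. A class needed at least 20 cells in a library to lead there. Cells of both monocyte and macrophage gates, which led Il18 pooled, had 7 in library 1. Pericytes had 18 in library 1 and 14 in library 4, and all 46 keratinocytes were from library 1. The 22 cells of both basophil and mast cell gates, which led Il1rl1 pooled, could lead no library. The classes compared thus differed between libraries.

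Over 35 points of 1 class in 1 library with at least 50 cells, which share libraries and depth, the genes closest in pattern to each member were found by the correlation of log2(CPM + 10), as a description. Closest to Il1b were Clec7a (r = 0.96), a receptor for fungal glucans, Lpcat2 (0.94) and Ccrl2 (0.93). Closest to Il1rn were Arg2 (0.98), Ptafr (0.96) and Nlrp3 (0.96), and to Il1a Gpr84 (0.87), Acod1 (0.85) and Cd33 (0.85). Il1r2 was closest to Slc7a11, S100a9 and G0s2 (each 0.91), of which S100a9 and G0s2 are markers of the neutrophil gate. Il1rap was closest to Gm14286 (0.91), Gm43660 (0.91) and the formyl peptide receptor Fpr1 (0.90). Il18 was closest to the interferon-induced genes Oas1a (0.90) and Dhx58 (0.90) and to Gm21188 (0.89). Il1r1 was closest to Gstm2, Runx1t1 and P3h3 (each 0.96), Il33 to Rarres2 (0.95), Gfpt2 (0.94) and the activin antagonist Fst (0.92), and Il1rl1 to Gm48720 (0.82), the hyaluronan synthase Has1 (0.80) and Smoc2 (0.79). Among members, Il1b and Il1rn had r = 0.91 and Il33 and Il1r1 r = 0.83.

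Of 34 other pathway symbols listed, 30 were in the matrix and 25 had at least 500 UMIs. Of these 25, 5 held over 50% of their UMIs in 1 class (Il1rl2, Sigirr, Il1f6, Il1f9 and Nlrp3), where 14.9% of all tested genes did, and 7 were led by the same class, neutrophils, in all 4 libraries (Il1f6, Il1f9, Nlrp3, Casp4, Irak2, Nfkbia and Nfkbiz), where 11.8% of all tested genes were led by 1 class throughout. These counts say nothing particular to the pathway. The IL-36 ligand gene Il1f9 had 211, 562, 560.0 and 538 CPM in the neutrophils of libraries 1 to 4, and Il1f6 20.9 CPM pooled. The IL-36 receptor gene Il1rl2 held 69.4% of its UMIs in fibroblasts, at 36.6 CPM, with 48.1 CPM in the 46 keratinocytes.

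The inflammasome genes did not share a class. Nlrp3, the sensor, had 372, 2839.8, 2347 and 999 CPM in neutrophils, lowest in library 1 as for Il1b, Il1r2 and Il1rap. Casp1, which cuts both precursors, had 82.2 CPM in monocytes, 65.9 CPM in tumour-gated cells and 24.1 CPM in neutrophils. The adaptor Pycard had 239.98 CPM in monocytes and 44.3 CPM in neutrophils, and the pore-forming Gsdmd 92.8 CPM and 33.7 CPM. Casp4 (caspase-11) was highest in neutrophils at 263 CPM. Nlrc4 reached 7.24 CPM in macrophages, and Aim2 79.7 CPM in the 25 B cells and 71.6 CPM in neutrophils. The leading class of Casp1, Pycard, Gsdmd, Nlrc4 and Aim2 changed between libraries.

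On the IL-18 side, Il18r1 had 303 CPM in basophils and 185 CPM in T cells, and its partner Il18rap 391 CPM in basophils, 230.3 CPM in NK cells and 133 CPM in neutrophils, where Il18r1 was at 5.87 CPM. Il18bp, the secreted IL-18 antagonist, had 115 CPM in cells of both the monocyte and macrophage gates, the class with the highest Il18. Sigirr, a negative regulator, held 71.5% of its UMIs in tumour-gated cells, at 35.9 CPM, a level near the 34.8 CPM of T cells. Of the signalling chain, among classes of at least 20 cells, Irak2 (201 CPM), Nfkbia (8980.4 CPM) and Nfkbiz (1732 CPM) were highest in neutrophils and Myd88 in monocytes (159 CPM), with cells of both monocyte and macrophage gates leading library 2 for Myd88. For Irak1, Irak4, Traf6, Map3k7 and Hmgb1 the highest pooled class lay only 1.02-fold to 1.05-fold over the next and the leading class changed between libraries, so no class is given for them. Irak3 (151 CPM in basophils) and Tollip (83.5 CPM in cells of both basophil and mast cell gates) were highest in classes that reached 20 cells in no library, and their leading class also changed between libraries.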

How the data were processed

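Cells of 4T1 tumours were profiled with 10x Genomics 3' chemistry. The authors deposited 1 matrix of raw UMI counts per gene and barcode, joined over 4 libraries and not scaled. For the software that made it, the extract protocol names Cell Ranger 3.0.2, the processing notes 2.1.1 with build mm10, and the matrix header 6.1.2. The protocol states 15603 cells after its filter of 300 genes and 15% mitochondrial UMIs, where the same filter left 32133 of 33064 barcodes here. The paper divides its number between PBS and TIOs+NIR3 mice alone. The number here covers all 4 libraries, so the sets of samples may differ. All 55450 identifiers matched GENCODE vM21 (GRCm38), and no source read here says if counting used strand. Il1a overlaps Gm14023, Il1b Il1bos, Il1r2 Gm16894, Il1rap Gm20319 and Il18 Bco2 and Tex12 on the opposite strand, and Il1r1 overlaps Gm38070 and Il1r2 overlaps Gm37347 on the same strand.

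A marker was held at 10% or more of its 99.9th percentile, and a cell needed 2 to 4 markers for 1 of 19 gates. Doublets were not called. Cells of several gates were left out, except those of both monocyte and macrophage gates and of both basophil and mast cell gates, which were kept as classes. Summed UMIs per class gave CPM with exact 95% Poisson intervals, and shares carry exact (Clopper-Pearson) intervals, both for counting error only. For detection, cells were thinned to 1000 UMIs, which left out 1890 cells. Splits of neutrophils, macrophages and fibroblasts used 1 UMI of a gene in thinned cells, those of T cells 1 UMI at full depth. In thinned cells a marker counted as absent may have been present at full depth. The named genes were the 9 members, listed pathway genes with at least 500 UMIs, and the 3 genes closest in pattern to each member among those with at least 1000 UMIs. Members, lists and markers were chosen with earlier results of these data known, and the gate thresholds and splits within a class after values were seen. The steps were run on simulated cells drawn from the mean profiles of the gated classes. These held no doublets and no spread within a class beyond counting and depth, so they do not test the gates on real mixtures. Python 3.11.15, numpy 2.4.6, scipy 1.17.1, pandas 2.3.3 and scanpy 1.11.5 were used. Alternatives were other cell filters, clusters in place of gates, stricter gates, doublet removal, thinning and leaving out each library.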

Additional observations from a re-analysis of the deposited data

How the results depend on the processing

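The 9 genes were recomputed under 14 alternatives. With 1 more marker per gate, 3 genes rather than 5 held over 50% of their UMIs in 1 class, where 11.6% of all tested genes did. Over the settings that kept every library this count ran from 3 to 7, and the share over all genes from 11.6% to 26.0%. With each cell thinned to 1000 UMIs, 3 genes rather than 5 had the same leading class in every library. Leaving out each library in turn gave 3 to 7 and 5 to 7 for these counts, the value of 3 without library 2. The share over all genes was then 14.0% to 18.0% for the first count, and it was not recomputed for the second. The leading class stayed for 7 to 9 of the 9 genes. It changed for Il1rl1 (to basophils, fibroblasts or mast cells, chiefly where the 22 doubly gated cells fell under the minimum of 20), for Il33 (to fibroblasts when thinned or without library 3, and to B cells when cells of several gates were assigned), for Il1r1 (to pericytes when thinned) and for Il18 (to monocytes in clusters). Some values rested on 1 library: Il33 in pericytes was 42.5 CPM without library 3 and 1428 CPM without library 2, against 784 CPM (449.7 CPM with 1 more marker per gate, 261 CPM thinned and 1847 CPM in clusters), the Il1b to Il1rn ratio of macrophages was 2.22 without library 1 against 10.4 with it, and Il1a in neutrophils was 502 CPM without library 2 against 759 CPM. No paired analysis was possible because no column carries a sample's replicate number and the values come from no test. With 4 libraries of unknown treatment, differences between libraries cannot be told apart from treatment, mouse or sort.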
